A study of Mus musculus with 8 samples.

Results

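In *Cars2* knockout brown adipocytes, the peaks of the transcription factor EBF2 were set against those of H3K27ac, the acetylation of lysine 27 on histone H3. The members were the peaks on chromosomes 1 to 19 in the 4 lists from these cells, 2 for each antibody, out of 8 lists in the series. The lists held 2140 such peaks of 2911 on all chromosomes. All 4 lists came from brown preadipocytes (BAC) of the cell line BAC-Cre with the genotype CarS2-KO. They descend from newborn mice with the *Cars2* flox/flox genotype, whose interscapular brown fat gave precursor cells that SV40 large T antigen made immortal, and a retrovirus with hygromycin resistance then brought in Cre recombinase stably. They were differentiated with IBMX, indomethacin, dexamethasone, insulin and T3, and the labels name the cell type as preadipocyte. The other 4 lists came from BAC-V cells with the empty vector (Vec, genotype WT), which also carry the floxed alleles and the large T antigen. In Cut & Tag, an antibody on chromatin in permeabilized cells guides a transposase to its site, and 50000 cells were used for each library.

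EBF2 is a DNA-binding factor of the early B cell factor family, and is known for opening chromatin at brown fat genes during adipocyte commitment. It binds together with PPARγ at many of these genes. H3K27ac is laid down by the acetyltransferases p300 and CBP, and marks active promoters and enhancers. In adipocytes, sites of EBF2 and this mark are therefore often studied together. *Cars2* encodes the mitochondrial cysteinyl-tRNA synthetase, which also makes cysteine persulfide.

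Several limits stood before any result. Peaks in the list of EBF2 Cre replicate 1 are named with the term Cars2AKO, the name given to the adiponectin-Cre mouse and not to the cell line, so that its origin from BAC rests on its label, and values without it are given. EBF2 peaks were called in the narrow layout and H3K27ac peaks in the broad one, and the smallest −log10 q-value was 1.60 and 1.30 in the EBF2 lists against 1.07 and 1.04 in the H3K27ac lists. Antibody and calling mode cannot be told apart in widths and counts of peaks, nor in shares taken within a width class. The lists give no reads, so depth is unknown. A background coverage recovered from fold and p-value, at a low percentile over the weaker peaks, was 8.26 and 8.76 for EBF2 and 9.66 and 9.92 for H3K27ac. In the H3K27ac lists fold and p-value are means over a region, so these figures do not compare depth between the antibodies. No source says that the 2 libraries of an antibody were separate cultures. With 2 libraries against 2, the two-sided exact permutation test has 6 arrangements and gives no p-value below 0.333.

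The genes that define the labelled cell type were looked up in the lists. Over all 20665 protein-coding genes, 3.84% had an EBF2 peak and 5.49% an H3K27ac peak within 3 kb of an end in at least 1 list, so that few genes of a short list could have one. None of the 10 brown adipocyte, 14 adipocyte or 5 preadipocyte markers had a peak of either antibody within 3 kb of an end. Of these 29 genes *Ly6a* alone had peaks within 50 kb, at 6.68 and 4.69 kb in the H3K27ac lists and at 42.6 kb in EBF2 replicate 1. The nearest peak of the 4 lists to *Ucp1*, the uncoupling protein of brown fat, was 3891 kb away. For *Cidec*, a lipid droplet protein, the nearest peak was 117 kb away. The *Ebf2* gene itself had its nearest peak at 1824 kb and *Cars2* at 207 kb, so the lists do not check the deletion of *Cars2*. The 14 partners and coactivators of EBF2 and the 23 actin cytoskeleton genes in the reference likewise had no peak within 3 kb of an end, and zeros in lists of this size lie near those shares.

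Of the regions with H3K27ac in both lists and EBF2 in neither, the most numerous kind was 2 kb or less and near gene ends, and promoters of this kind are shown. Printed here are the 300-base windows (250 before and 50 after the start, from RefSeq GRCm38.p6, 5′ to 3′ on the gene's strand) of the 4 best-ranked genes with an H3K27ac peak in both lists and no EBF2 peak, followed by 2 genes with the opposite pattern. Every CpG dinucleotide is in capitals. *Hdlbp*, which encodes the RNA-binding protein vigilin, and *Septin2*, a GTP-binding septin of the cytoskeleton, start back to back under 1 peak. *Clcn4* encodes an endosomal chloride-proton exchanger and *Ascc3* a helicase. *Slc22a13* encodes an organic anion transporter and *Mrgpra2a* a Mas-related receptor of sensory neurons.
Clcn4, chr7:7298787-7299086, minus strand: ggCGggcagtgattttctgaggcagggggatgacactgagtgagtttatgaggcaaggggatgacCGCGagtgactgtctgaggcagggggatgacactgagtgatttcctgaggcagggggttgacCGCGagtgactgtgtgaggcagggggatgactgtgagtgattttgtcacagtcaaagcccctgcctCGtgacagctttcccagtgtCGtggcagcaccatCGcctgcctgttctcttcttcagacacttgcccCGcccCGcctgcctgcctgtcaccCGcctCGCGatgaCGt
Ascc3, chr10:50592419-50592718, plus strand: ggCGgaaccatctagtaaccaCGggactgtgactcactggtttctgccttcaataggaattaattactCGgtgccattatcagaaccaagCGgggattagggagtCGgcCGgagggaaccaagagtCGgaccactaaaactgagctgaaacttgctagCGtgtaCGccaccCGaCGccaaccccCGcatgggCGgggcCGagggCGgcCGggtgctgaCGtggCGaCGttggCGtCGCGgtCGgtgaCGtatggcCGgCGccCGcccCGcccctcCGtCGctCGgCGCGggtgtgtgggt
Hdlbp, chr1:93478328-93478627, minus strand: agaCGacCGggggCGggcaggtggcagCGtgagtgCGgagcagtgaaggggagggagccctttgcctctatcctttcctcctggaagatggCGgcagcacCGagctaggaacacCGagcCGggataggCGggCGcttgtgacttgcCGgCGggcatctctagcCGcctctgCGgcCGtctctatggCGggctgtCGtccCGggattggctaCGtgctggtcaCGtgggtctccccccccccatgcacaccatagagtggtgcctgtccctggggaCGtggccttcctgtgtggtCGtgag
Septin2, chr1:93478743-93479042, plus strand: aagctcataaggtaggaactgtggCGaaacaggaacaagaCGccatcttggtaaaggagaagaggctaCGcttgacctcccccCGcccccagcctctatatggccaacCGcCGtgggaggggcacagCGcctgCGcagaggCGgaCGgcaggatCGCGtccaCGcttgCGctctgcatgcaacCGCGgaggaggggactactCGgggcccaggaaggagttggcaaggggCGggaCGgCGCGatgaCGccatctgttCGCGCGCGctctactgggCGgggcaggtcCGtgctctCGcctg
Slc22a13, chr9:119209056-119209355, minus strand: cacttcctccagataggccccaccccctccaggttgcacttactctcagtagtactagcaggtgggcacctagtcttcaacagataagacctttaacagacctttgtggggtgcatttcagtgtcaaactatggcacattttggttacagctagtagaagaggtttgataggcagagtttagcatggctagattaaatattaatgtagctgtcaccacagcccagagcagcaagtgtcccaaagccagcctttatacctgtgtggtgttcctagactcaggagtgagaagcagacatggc
Mrgpra2a, chr7:47452115-47452414, minus strand: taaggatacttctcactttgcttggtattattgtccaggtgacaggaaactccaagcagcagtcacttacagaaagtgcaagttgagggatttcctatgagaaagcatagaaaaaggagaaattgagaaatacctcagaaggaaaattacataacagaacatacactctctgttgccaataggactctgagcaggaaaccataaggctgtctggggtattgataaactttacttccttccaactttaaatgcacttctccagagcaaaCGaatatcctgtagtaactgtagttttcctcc
The *Clcn4*, *Ascc3*, *Hdlbp* and *Septin2* windows held 14, 33, 23 and 29 CpGs with a GC content of 59.7%, 63.7%, 66.7% and 65.7%. The *Slc22a13* window held 0 CpGs at 47.7% GC and that of *Mrgpra2a* held 1 at 39.7%. All 4 H3K27ac-only windows contained GGGCGG, the GC box, on either strand, and neither EBF2-only window did. The H3K27ac-only windows lay in regions of 1018, 1107 and 1352 bp, and the EBF2-only windows in regions of 18134 and 26568 bp. Antibody and region width therefore cannot be told apart in these 6 windows. TATAAA was in the *Slc22a13* window only. Such a match is a string of letters and not a site.

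By width, the antibodies shared the long peaks and differed in the short ones. EBF2 had 423 and 463 peaks, which covered 48.5 and 48.3 Mb, and H3K27ac had 525 and 729 peaks over 48.3 and 49.8 Mb. Between 97.8% and 98.6% of the covered length lay in peaks over 10 kb, of which there were 178 and 205 for EBF2 and 228 and 226 for H3K27ac. The class of 2 to 10 kb held 141 and 177 EBF2 peaks against 158 and 144 of H3K27ac. Peaks of 2 kb or less (called narrow here) numbered 104 and 81 for EBF2 and 139 and 359 for H3K27ac. The mark therefore had more narrow peaks in both lists, but its own lists differed from each other by more than the lower of them differed from EBF2. Narrow peaks were 24.6% and 17.5% of EBF2 peaks and 26.5% and 49.2% of H3K27ac peaks, a difference of 16.8 percentage points (21.0% ± 5.0 against 37.9% ± 16.1, SD, n = 2, exact permutation p = 0.333, the smallest possible). Without H3K27ac replicate 2 the difference was 5.44 points. In Vec cells the antibodies overlapped in this share. It was 25.9% and 22.2% for EBF2 and 38.1% and 18.4% for H3K27ac, a difference of 4.20 points.

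**Figure D1:**
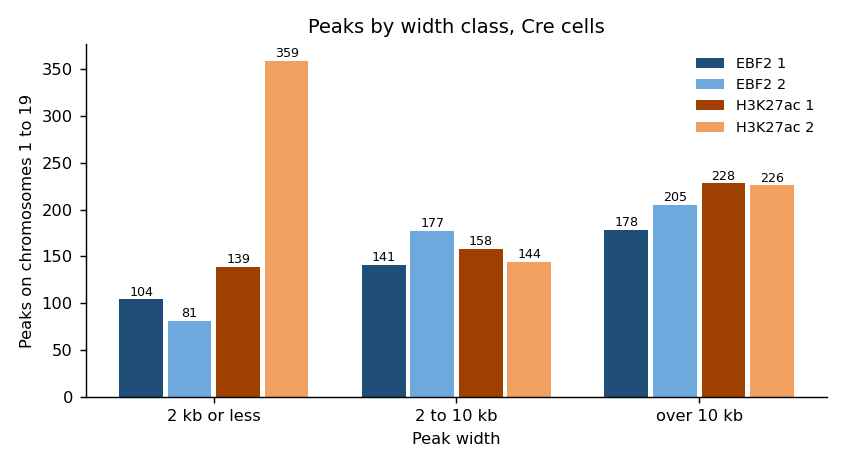
Number of peaks on chromosomes 1 to 19 (vertical axis) in 3 classes of peak width (horizontal axis), 1 bar for each of the 4 Cre libraries, where 1 and 2 are replicate numbers. H3K27ac replicate 2 stands out with 359 peaks of 2 kb or less, while the class over 10 kb runs from 178 to 228.

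A larger share of the narrow peaks lay near gene ends for H3K27ac than for EBF2. Within 3 kb of protein-coding gene ends were 10 of 104 (9.62%) and 9 of 81 (11.1%) narrow EBF2 peaks, against 62 of 139 (44.6%) and 232 of 359 (64.6%) narrow H3K27ac peaks. The 95% Wilson intervals were 5.31% to 16.8% and 5.96% to 19.8% for EBF2, and 36.6% to 52.9% and 59.5% to 69.4% for H3K27ac, so that no EBF2 interval met one of H3K27ac. These intervals cover counting error only. They take each peak as independent, although some narrow peaks lie in runs, so they may be too short. Which peaks count as narrow depends on the calling mode, so antibody and mode cannot be told apart in this contrast either. The difference of 44.3 percentage points (10.4% ± 1.1 against 54.6% ± 14.2, SD, n = 2) was larger than the spread within either antibody, with p = 0.333 in the exact permutation test, the smallest possible. It was 43.5 points without EBF2 Cre replicate 1. The median distance from a narrow peak to a gene end was 34.7 and 59.0 kb for EBF2, and 4.31 and 0.086 kb for H3K27ac.

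Neither wider class showed this. Of peaks of 2 to 10 kb, 20.6% and 14.7% for EBF2 and 13.9% and 17.4% for H3K27ac were within 3 kb of an end, and the lists overlapped. Of those over 10 kb, the shares were 67.4% and 62.9% against 63.2% and 62.8%. Over all widths, 37.6% and 35.4% of EBF2 peaks and 43.4% and 54.7% of H3K27ac peaks were near an end, a difference of 12.6 points (36.5% ± 1.5 against 49.1% ± 8.0, SD, n = 2, exact permutation p = 0.333).

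**Figure D2:**
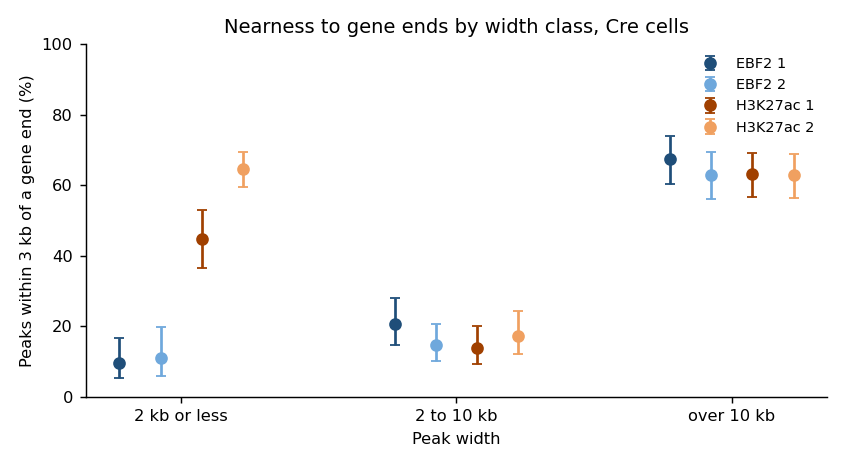
Share of peaks within 3 kb of protein-coding gene ends (vertical axis, percent) by peak width (horizontal axis), 1 point for each Cre library with its 95% Wilson interval. The 2 H3K27ac libraries, at 44.6% and 64.6%, stand above the EBF2 libraries at 9.62% and 11.1% among peaks of 2 kb or less, and all 4 fall together in the wider classes.

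The same separation held at annotated transcription starts. The midpoint of a narrow peak fell within 1 kb of a start for 4 of 103 (3.88%) and 2 of 80 (2.5%) EBF2 peaks on the chromosomes with a promoter entry, and for 43 of 131 (32.8%) and 200 of 348 (57.5%) H3K27ac peaks. The H3K27ac midpoints in this window were centred close to the start, with a median of 31.5 and 41.5 bp on its downstream side. More than 50 kb from any start were 51.5% and 62.5% of the narrow EBF2 peaks and 37.4% and 22.1% of those of H3K27ac. In Vec cells, whose lists played no part in these shares, narrow peaks were within 3 kb of a gene end at 23.7% and 13.2% for EBF2 and 67.5% and 38.4% for H3K27ac. The Vec antibodies again did not overlap, 34.5 points apart (exact permutation p = 0.333), although the EBF2 replicate 2 list of Vec had a background coverage of 1.39 and that of H3K27ac replicate 1 had 18.9.

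**Figure D3:**
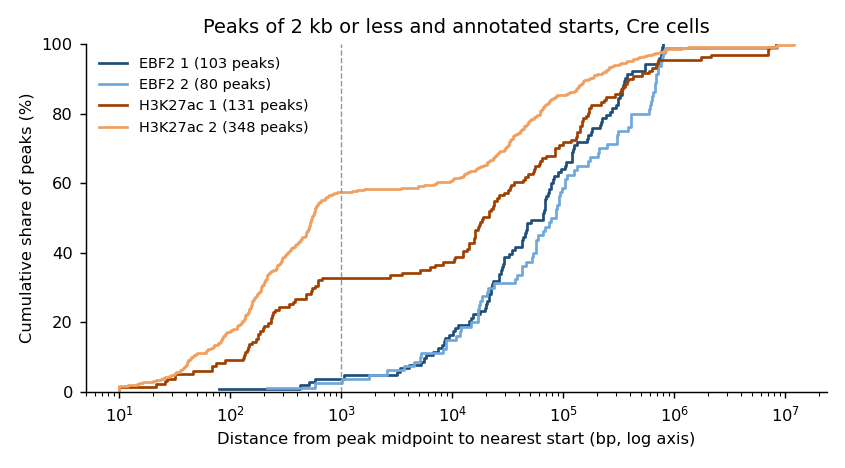
Cumulative share of peaks of 2 kb or less (vertical axis, percent) against the distance from the peak's midpoint to the nearest annotated start (horizontal axis, bp, log scale), 1 line for each Cre library, with distances under 10 bp drawn at 10 bp. At the dashed line at 1 kb the H3K27ac lines stand at 32.8% and 57.5% and the EBF2 lines at 3.88% and 2.5%.

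The libraries were alike in the long stretches and little else. The Jaccard index, the shared length over the total length of 2 lists, was 0.884 for the EBF2 pair, 0.867 for the H3K27ac pair and 0.819 to 0.85 for the 4 pairs of unlike antibodies. Among peaks of 10 kb or less it was 0.065, 0.096 and 0.057 to 0.061. A narrow EBF2 peak was found again in the other EBF2 list in 34.6% and 48.1% of cases, and in at least 1 H3K27ac list in 57.7% and 59.3%. A narrow H3K27ac peak was found again in the other H3K27ac list in 61.9% and 17.5% of cases, and in an EBF2 list in 25.2% and 7.52%. The narrow EBF2 peaks thus met H3K27ac at least as often as they met their own replicate, whereas the reverse was true for H3K27ac. The other antibody had 2 lists in which a peak could be found and the own replicate 1.

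Merging the 4 lists gave 939 regions. All 4 lists held 167 of them, which made up 89.2% of the merged length, and 154 of these were over 10 kb. Both H3K27ac lists and neither EBF2 list held 71 regions, 7.56% of all merged regions. Both EBF2 lists and neither H3K27ac list held 15 regions, 1.6% of all. The H3K27ac-only regions were 40 of 2 kb or less, 12 of 2 to 10 kb and 19 over 10 kb. The EBF2-only regions were 0, 6 and 9 in these classes. Single lists held the largest group of regions, 351 for H3K27ac replicate 2 with 288 of 2 kb or less, 112 for H3K27ac replicate 1, 71 for EBF2 replicate 1 and 84 for EBF2 replicate 2. Without EBF2 Cre replicate 1, the H3K27ac-only regions numbered 98. The EBF2-only regions then rested on 1 list and numbered 126, and without EBF2 Cre replicate 2 they numbered 109.

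**Figure D4:**
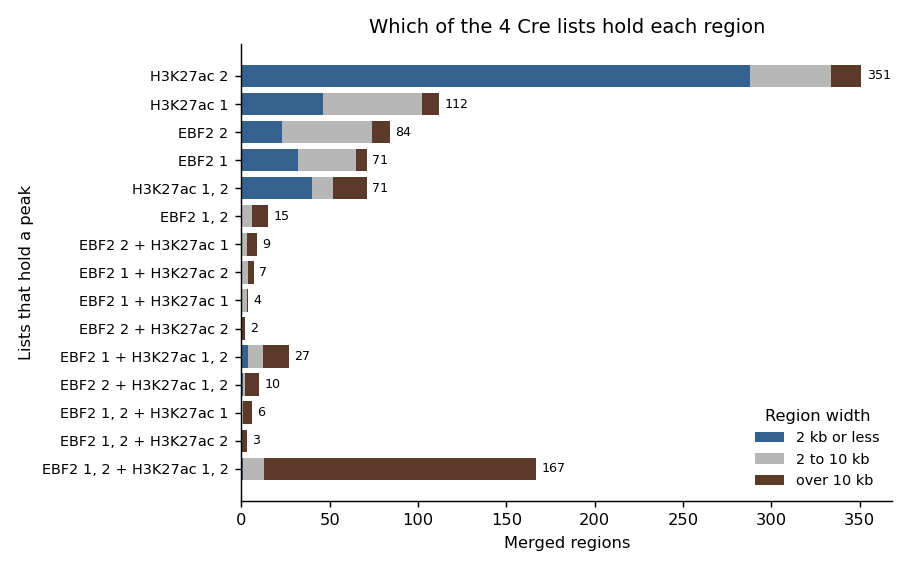
Number of merged regions (horizontal axis) for each combination of the 4 Cre lists that hold a peak in them (vertical axis), with the width of the region in colour. Regions of all 4 lists are mostly over 10 kb (154 of 167), those of both H3K27ac lists alone mostly 2 kb or less (40 of 71), and those of both EBF2 lists alone have none of that width.

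Of the 71 H3K27ac-only regions, 48 (67.6%) lay within 3 kb of a gene end, against 47.4% of all merged regions, and of the 40 narrow ones 32 (80.0%) did, against 57.5% of all 435 narrow regions. Among the 334 narrow regions held by 1 H3K27ac list only, the share was 63.5%. The 71 regions were spread over 16 chromosomes. In 24 of the 40 narrow regions the peak covered an annotated start, and 9 had 2 or more genes within 3 kb. Their folds were low, 1.47 to 2.60 in replicate 1 and 1.49 to 2.63 in replicate 2. The Vec lists, which the rule did not use, held H3K27ac in 31 of the 40 narrow regions (77.5%), against 33.1% of all narrow regions. They held EBF2 in 1 (2.5%), near the 5.75% of all narrow regions. Over the 71 regions at least 1 Vec H3K27ac list had a peak in 58 (81.7%), against 50.4% of all merged regions, and at least 1 Vec EBF2 list in 13 (18.3%, against 28.97%). A call in both H3K27ac lists was part of the rule, whereas most merged regions were held by 1 list. Of the 334 narrow regions held by 1 H3K27ac list only, a Vec H3K27ac list held 28.7%. The higher recurrence of regions called in 2 lists is therefore no separate support.

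The H3K27ac-only region with the best mean rank was an exception to this position. It lay at chr2:98662653-98667016 with no protein-coding gene within 1031 kb, and had folds of 1.95 and 2.26 and scores (−log10 q-value times 10) of 1133 and 1581. No list of regions with anomalous signal was applied before this ranking. The region near *Cilk1*, a ciliary kinase, at chr9:78175487-78176622, had folds of 1.93 and 2.19. Its scores were only 81 and 139, so the far higher scores of the chr2 region came at like folds, which was not examined further. That at chr8:4677600-4678696, 45.0 kb from the zinc finger gene *Zfp958*, had folds of 1.92 and 2.08. At chr10:3109902-3112960, 6.88 kb from *9230019H11Rik*, they were 1.68 and 1.91. These 4 regions were outside 3 kb of a gene end, unlike most that followed in rank.

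At gene starts the peak was about 1 kb long. The *Clcn4* region at chr7:7298476-7299493 had H3K27ac folds of 2.01 and 2.16. The *Ascc3* region at chr10:50591901-50593007 had 1.71 and 1.88. The shared start region of *Hdlbp* and *Septin2*, at chr1:93478032-93479383, had 1.51 and 1.68 and recurred in both Vec H3K27ac lists. That between *Fkbp15*, of the FK506-binding family, and the copper importer gene *Slc31a1*, at chr4:62360259-62361235, had 1.78 and 1.95. In each of these regions both EBF2 lists were empty.

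The region between *Zfp942* and *Zfp943*, which encode zinc finger proteins, at chr17:21962118-21963375, had folds of 2.06 and 2.61. The *Ibtk* region at chr9:85748953-85750014, by a gene for an inhibitor of Bruton tyrosine kinase, had 1.77 and 1.98. The region of the ubiquitin ligase gene *Ube3a*, at chr7:59228285-59229442, had 1.67 and 2.01. That of the phosphatase gene *Ptp4a1*, at chr1:30949170-30950162, had 1.505 and 1.588. The fold in these 8 gene-start regions was higher in replicate 2 each time, and folds of separately called lists share no scale.

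Of the 15 best-ranked H3K27ac-only regions the other 3 were a narrow one at chr4:32250065-32251241, 11.7 kb from *Bach2*, a transcriptional repressor of lymphocytes, and a pair over 10 kb. The pair lay at chr1:88103628-88130023 in the *Ugt1a* cluster of glucuronidation enzymes near *Ugt1a6b* (folds 3.15 and 2.56) and at chr3:56923273-56939032, 347 kb from *Tm4sf1* (folds 2.40 and 3.01). Both of these long regions overlapped a Vec EBF2 peak, in 2 lists and in 1 list.

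The 15 EBF2-only regions lay at 6 places on 4 chromosomes, since 8 were pieces of 1 run and 3 were pieces of another. The shares that follow count such pieces as separate regions. Counted by place, 3 of the 6 lay within 3 kb of a protein-coding gene end. Of the 15, 3 (20.0%) were within 3 kb of a protein-coding gene end, against 47.4% of all merged regions, and 2 of these 3 held the *Slc22a13* and *Mrgpra2a* promoter windows shown above. Vec EBF2 lists held 7 of the 15 (46.7%, against 28.97% of all merged regions) and Vec H3K27ac lists 4 (26.7%, against 50.4%). A call in both EBF2 lists was part of the rule, so the Vec EBF2 share is no separate support. No Vec list had a peak in 8, as in 429 of all 939 regions.

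Those 8 formed a single run at chr6:133312144-133460556, a span of 148 kb with 0 protein-coding genes and 1 pseudogene, *Gm34149*, between *5530400C23Rik* at 16.4 kb and *Gm5885* at 68.6 kb. EBF2 replicate 1 had 15 peaks over 36.7 kb there with folds of 2.05 to 2.37. EBF2 replicate 2 had 9 peaks over 128 kb with folds of 2.05 to 2.56. The other 6 lists of the series, H3K27ac of the same cells included, had no peak in the span. Both replicates therefore covered the run, one in pieces and the other nearly throughout, at folds close to the limit of their lists (1.71 and 1.60).

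The other places were single or few. The highest fold was at chr12:119995284-120023711 in *Tmem196*, which encodes a transmembrane protein, with EBF2 folds of 5.96 and 5.56, and the Vec lists there had EBF2 in 1 (2.98) and H3K27ac in 1 (4.29). At chr9:119198243-119216376, around *Slc22a13*, the folds were 4.32 and 3.95, and both Vec EBF2 lists and 1 Vec H3K27ac list had a peak. At chr7:47440572-47467139, with the Mas-related receptor genes *Mrgpra2a* and *Mrgpra2b*, they were 2.70 and 2.66, and all 4 Vec lists had a peak. These 3 places thus carried H3K27ac in the Vec lists, although neither Cre H3K27ac list had a peak in them. The difference between the Vec and Cre lists at these places was not tested.

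The remaining pair of places had low folds. At chr12:115258289-115295801, within the immunoglobulin heavy chain locus *Igh*, 3 regions covered 11.9 kb of a 37.5 kb span, with folds of 2.16 to 2.27 in replicate 1 and 1.95 to 2.15 in replicate 2. A region at chr7:23116162-23123218, 9.40 kb from *Gm10662*, had 2.27 and 2.15. In the first span the Vec lists had 1 EBF2 peak of 145 kb and 1 H3K27ac peak of 2.12 kb. Over the second they had 1 EBF2 peak of 57.3 kb and H3K27ac peaks of 3149 and 3069 kb.

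Counted by gene, 745 and 726 of 20665 protein-coding genes had an EBF2 peak within 3 kb of an end, and 853 and 1066 an H3K27ac peak. Both EBF2 and both H3K27ac lists had one at 647 genes (3.13%). H3K27ac alone, in both lists and in neither EBF2 list, was at 79 genes, 0.382% of those tested, and EBF2 alone was at 10 genes, 0.0484%. Of the 79 genes 45 had a narrow peak in at least 1 H3K27ac list and 41 in both. Narrow peaks as such reached 10 genes in each EBF2 list and 73 and 290 genes in the H3K27ac lists.

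The 10 genes with EBF2 alone were *Tmem196*, *Slc22a13*, *Mrgpra2a*, *Mrgpra2b*, *Ifi205*, *Zscan4f*, *Vmn1r260*, *Vmn2r43*, *Gm10375* and *Gm46425*. Of these, *Ifi205*, *Vmn1r260* and *Gm10375* lay within 3 kb of merged regions held by all 4 lists. Their calls thus rested on where the peaks of each list ended, and not on a region without H3K27ac. *Vmn2r43*, *Zscan4f* and *Gm46425* were likewise not within 3 kb of a merged region held by both EBF2 lists and neither H3K27ac list. Of the 10 genes only *Tmem196*, *Slc22a13*, *Mrgpra2a* and *Mrgpra2b* were. *Vmn1r260* and *Vmn2r43* encode vomeronasal receptors and *Zscan4f* a zinc finger protein of early embryos. None of the 10 had a narrow EBF2 peak at its end in either list. The 1 gene with narrow EBF2 peaks in both lists was *Trim5*, of a family of antiviral factors, named after its values were seen, and a wider H3K27ac peak was also within 3 kb of it.

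Some of the 79 genes with H3K27ac alone are named here as examples, chosen after their values were seen and not tested for a shared function. *Gspt1* encodes a translation release factor, *Kpna4* an importin, *Stt3a* a subunit of oligosaccharyltransferase, *Cdc26* a subunit of the anaphase-promoting complex and *Rnmt* the mRNA cap methyltransferase. *Prpf4* acts in splicing, *Rnf4*, *Rnf138* and *Ube2d2a* act in ubiquitination, and *Rel* and *Tlr4* in innate immune signalling. Each of these genes had a narrow H3K27ac peak in both lists and no EBF2 peak within 3 kb. The lists of translation factors, splicing factors, proteasome subunits and chaperones had 0 genes with H3K27ac alone. Among the 34 genes without a narrow peak were *Serpina1a*, *Ugt1a10* and *Nat8f5*, of clustered families. *Duxf3*, *Ppp2r3c*, *Zfp931*, *Catspere1* and *Pcnx*, also of these 34, lay within 3 kb of merged regions held by all 4 lists. The merged regions at *Serpina1a*, *Serpina1c* and *Dnah7b* were held by 1 EBF2 list as well. The calls of these genes therefore rested on where peaks ended, and not on a region without EBF2.

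The gene lists gave little beyond families of near-identical copies. Zinc finger genes of the *Zfp* series had H3K27ac alone at 7 of 386 (*Zfp931*, *Zfp942*, *Zfp943*, *Zfp560*, *Zfp266*, *Zfp426* and *Zfp369*, 1.81%, against 0.382% of all genes) and EBF2 alone at 0, with 22 at both. Of 352 vomeronasal receptors 71 had both marks in all 4 lists, 0 H3K27ac alone and 2 EBF2 alone. All 4 lists also held 31 of 76 histone genes, 23 of 70 defensins, 16 of 45 *Pramel* genes, 16 of 22 major urinary proteins and 283 of 965 predicted *Gm* genes, against 3.13% of all genes. Reads from such copies may be split or placed at several sites by the alignment, so these genes are uncertain.

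The metabolic and housekeeping lists had shares from 0 to 7.59%, beside the 5.49% and 3.84% of all genes with an H3K27ac or EBF2 peak in at least 1 list. Lipid metabolism had 2 of 33 genes, *Hadha* and *Hadhb*, the subunits of the mitochondrial trifunctional protein of β-oxidation, with a narrow peak in H3K27ac replicate 2 alone. Oxidative phosphorylation had 3 of 81 in that list, *Atp5j* and *Atp5pb* of ATP synthase and *Ndufb1* of complex I. Ribosomal proteins had 1 of 78 (*Rpl31*), proteasome subunits 1 of 38 (*Psmd1*) and translation factors 0 of 66. EBF2 had none of these genes. Of splicing factors H3K27ac had 2 of 51 (*Hnrnpk* and *Srsf4*) and EBF2 1, and of chaperones 6 of 79 and 2. The muscle, macrophage and endothelium markers (6, 5 and 4 genes) had no peak of either antibody, and of 5 hepatocyte markers *Serpina1a* had H3K27ac in both lists, in peaks over 2 kb. Of 1100 olfactory receptors 3 had an H3K27ac peak and 3 an EBF2 peak in at least 1 list.

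The promoters under narrow H3K27ac peaks differed in base composition from those under the long peaks. RefSeq windows were at hand for 16457 of the 20665 protein-coding genes (79.6%), 20085 windows in all. An observed/expected CpG ratio of 0.6 or more, a usual bound for CpG islands, was found in 48.9% of all windows. It was found in 47 of 57 (82.5%) and 212 of 245 (86.5%) windows in narrow H3K27ac peaks, and in 31 of 34 (91.2%) windows in narrow H3K27ac-only regions. In EBF2 peaks over 10 kb it was found in 13.9% of 640 and 12.9% of 634 windows, and in H3K27ac peaks over 10 kb in 14.4% of 672 and 14.2% of 682. Long peaks of both antibodies thus lay on CpG-poor promoters and the narrow H3K27ac peaks on CpG-rich ones. Only 6 and 4 windows were in narrow EBF2 peaks, too few to describe.

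**Figure D5:**
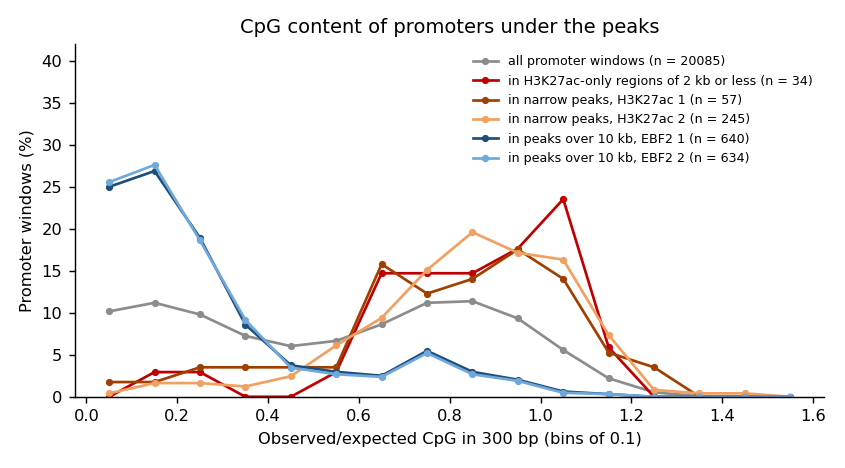
Share of 300-base promoter windows (vertical axis, percent) by their observed/expected CpG ratio (horizontal axis, bins of 0.1), for all windows and for windows inside the named peaks, with n windows each. Windows in narrow H3K27ac peaks and H3K27ac-only regions lie mostly above 0.6 (82.5%, 86.5% and 91.2%), and those in EBF2 peaks over 10 kb mostly below it (13.9% and 12.9% above).

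Other features of these windows were split in the same way by peak width. The median GC content was 57.0% for all windows, 63.7% and 62.7% for the narrow H3K27ac peaks 47.3% for the EBF2 peaks over 10 kb in both lists and 47.7% for those of H3K27ac. GGGCGG on either strand was in 47.0% of all windows, 73.7% and 76.7% of those in narrow H3K27ac peaks and 14.7% and 14.2% of those in long EBF2 peaks, beside 15.3% and 15.4% in long H3K27ac peaks. TATAAA on either strand was in 12.7% of all windows, in 3.51% and 2.04% under narrow H3K27ac peaks, in 23.6% and 23.3% under long EBF2 peaks and in 24.4% and 24.0% under long H3K27ac peaks. Another start on the opposite strand within 1 kb, as at *Hdlbp* and *Septin2*, was present for 9.57% of all windows, 26.3% and 35.5% of those in narrow H3K27ac peaks 4.38% and 4.10% of those in long EBF2 peaks and 4.46% and 4.69% of those in long H3K27ac peaks. These contrasts were between narrow and long peaks, and the long peaks of both antibodies had like values. CCCNNGGG, a core of the palindrome that EBF factors bind, was searched on these windows too. It was in 16.0% of all windows, 21.1% and 19.6% under narrow H3K27ac peaks, 13.3% and 13.1% under long EBF2 peaks and 11.3% and 12.3% under long H3K27ac peaks. Windows of 1 gene or of a start pair overlap, and genes of a family share sequence, so these shares have no test.

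Of the 167 regions of all 4 lists, 111 were within 3 kb of a gene end and 19 were over 100 kb from one. The best-ranked lay at chr14:69255336-69688682 around *Entpd4* and *Slc25a37*, with folds of 65.7 and 55.5 for EBF2 and 76.0 and 89.3 for H3K27ac. The longest lay at chr14:3011958-7662805 and spanned 4651 kb of predicted genes, and the next at chr7:20126167-23099336 held *Vmn1r* vomeronasal receptor genes over 2973 kb. Of the 13 regions of 10 kb or less in all 4 lists, 12 were of 2 to 10 kb, and 0 of the 13 were within 3 kb of a gene end, where 15.3% of all regions of 2 to 10 kb were. The first of these by rank, at chr9:3024060-3026660, had EBF2 folds of 3.96 and 3.65 and H3K27ac folds of 3.02 and 2.80, 309 kb from *Alkbh8*.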

How the data were processed

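The authors deposited 1 peak list for each library, with a score (−log10 q-value times 10), a fold or ratio to the caller's background, and −log10 of the p-value and q-value for each peak. In the H3K27ac lists these are means over the region. The submitters' processing notes name bcl2fastq 2.17, Trimmomatic 0.33, HISAT2 2.2.1, MACS2 2.2.7 and mm10, and caller settings are not given in the sources used here. Peaks on chromosomes 1 to 19 were sorted into 3 width classes, and distances were taken to the ends of protein-coding genes of GRCm38.p6, whose gene table has no strand, or to starts from RefSeq promoter windows, which for chromosome 18 were not used here. The 4 Cre lists were merged by overlaps of at least 1 bp. Background coverage was solved from fold and p-value. Shares were compared over libraries by the two-sided exact permutation test, and region and gene counts have no test.

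The members, lists and rules were chosen with earlier results of these data known. The named regions were the 15 of each antibody with the best mean rank of score, the best 10 narrow ones, the 5 best and 5 longest of all 4 lists, members of 24 gene lists, and *Cars2*, *Ebf2*, *Ucp1* and *Cidec*. The 13 regions of 10 kb or less in all 4 lists were added after their values were seen. Alternatives were a stricter score, equal numbers of peaks, X and Y, joining within 500 bp, a replicate block, other windows and gene sets, other overlap rules, and leaving out each library. A common q-value limit was added after the data were seen. No genome sequence was used here, so peak sequences outside promoters were not searched. The functions were tested on simulated lists. Computations ran in Python 3.11.15 (pandas 2.3.3, numpy 2.4.6, scipy 1.17.1), and plots were drawn with matplotlib 3.10.9.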

Additional observations from a re-analysis of the deposited data

How the results depend on the processing

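In the 3 shares compared between antibodies, H3K27ac stayed above EBF2 under all alternatives run, and no p-value could pass 0.05. Leaving out each library in turn gave differences of 5.44 to 28.2 percentage points for peaks of 2 kb or less, 6.92 to 18.2 points for peaks within 3 kb of a gene end, and 34.2 to 54.3 points for narrow peaks within 3 kb of one. It gave 81 to 431 regions and 99 to 344 genes of H3K27ac alone, and 19 to 126 regions and 20 to 29 genes of EBF2 alone. H3K27ac-only regions numbered 431 without H3K27ac Cre replicate 1 and 224 without H3K27ac Cre replicate 2, and its genes 344 and 120, since 1 list then sufficed. EBF2-only regions likewise numbered 126 without EBF2 Cre replicate 1 and 109 without EBF2 Cre replicate 2, which are more than the 98 and 81 of H3K27ac alone, and its genes 25 and 29. EBF2-only genes numbered 21 without H3K27ac Cre replicate 1 and 20 without H3K27ac Cre replicate 2. In every other setting H3K27ac-only regions and genes outnumbered those of EBF2.

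H3K27ac-only regions were 38 at the stricter score, 47 with equal numbers of peaks and 534 when either list sufficed. EBF2-only regions were 29 with X and Y, 25 at 50% reciprocal overlap, 25 at the same q-value limit and 170 when either list sufficed. H3K27ac-only genes were 125 over all annotated genes, 51 at transcription starts only, 49 from peaks of 10 kb or less and 385 when either list sufficed. EBF2-only genes were 18 with equal numbers, 17 with X and Y, 49 over all annotated genes, 3 from peaks of 10 kb or less, 44 when either list sufficed and 16 at the same q-value limit. At that limit the narrow difference at gene ends was 55.9 points. Joining peaks within 500 bp left all 7 results identical, so it gave no separate check.

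The replicate block, which pairs libraries by number, gave p = 0.5 in the exact sign-flip test for narrow peaks near gene ends, the smallest it can give. It leaves that difference at 44.3 points and every count as it was by definition, so these values are no check. The labels do not say that numbers mark a shared culture, and same-numbered libraries did not deviate together (r = -0.03 over 939 regions).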
